A study of Mus musculus with 10 samples.

Results

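The comparison described here set a viral vector carrying TDP-43mNLS against a vector carrying GFP alone, within mice whose TDP-43 gene was floxed. It used 7 of the 10 libraries of the series, chosen by the vector and genotype in their labels, and it covered every gene that passed a low-count filter set by group. The 4 cKO-mNLS libraries came from TDP-43flox/flox::CamKIIcre/- mice injected with AAV-FLEX-TDP-43mNLS-GFP. The 3 cKO-GFP libraries came from mice of the same genotype injected with AAV-FLEX-GFP. The other 3, labelled NC-GFP, came from CamKIIcre/- mice without the floxed gene injected with AAV-FLEX-GFP, and their values are given beside the others as a description. All mice carried the CamKIIcre driver, all received a virus into the dentate gyrus of the hippocampus, and GFP-positive cells were sorted from brain 1 month later. Each library pooled 3 to 4 animals, so a p-value speaks of the spread among pools, not among animals. The labels do not spell out the mNLS change and give no age.

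TDP-43, encoded by Tardbp, is a mostly nuclear RNA-binding protein. It binds UG-rich RNA, represses the splicing of cryptic exons and is needed in neurons to keep the transcripts of many long genes intact. CamKII-Cre acts mainly in excitatory forebrain neurons, and a FLEX cassette is expressed only after Cre has turned it round. Granule neurons of the dentate gyrus are excitatory, and they are born there from progenitors throughout life. Microglia, astrocytes, oligodendrocytes, vessels and the nearby choroid plexus are not targets of this driver.

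The sorted cells were not purely neuronal by their transcripts. The 25 genes of mature oligodendrocytes and myelin summed to 7811, 9777, 19919.7 and 23750.0 CPM (counts scaled to the library total) in the cKO-mNLS libraries and to 24942, 19618 and 13040.1 CPM in the cKO-GFP libraries. The 34 genes of presynaptic release summed to 1975, 3763, 2652 and 1573 CPM and to 547, 717 and 572 CPM in the same groups. These sums are not scaled for gene length, and the sources used here do not give the sort gates. Library totals were 17164206 to 29204293 counts, mitochondrial genes held 10.9% to 16.5% of them, and log2 CPM of libraries of 1 group correlated across genes at 0.912 to 0.96, where genes are not independent replicates. The lowest of these correlations were between cKO-mNLS libraries.

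Of 20379 genes tested, 3273 differed between cKO-mNLS and cKO-GFP at an adjusted p under 0.05, which is 16.1%. There were 1819 higher (8.93%) and 1454 lower (7.13%), and 5241 genes (25.7%) had groups that did not overlap in CPM. Calls came from edgeR's quasi-likelihood F test with Benjamini-Hochberg adjustment, and the median log2 fold change of all genes was -0.01. Of the 1819 higher genes, 453 (24.9%) averaged under 1 CPM in cKO-GFP, the group in which they were lower, and 534 had a log2 fold change above 3. Of the 1454 lower genes, 96 (6.60%) averaged under 1 CPM in cKO-mNLS, the group in which they were lower, and 73 had a log2 fold change below -3. Among all tested genes, 20.4% averaged under 1 CPM in cKO-GFP and 16.8% under 1 CPM in cKO-mNLS. The higher genes had a median genomic span of 46.5 kb and the lower genes one of 17 kb, beside 15.9 kb for all tested genes. When genes were divided into 5 groups of equal size by span, the group of longest spans, from 59.15 kb up, held 804 higher genes (19.7%) and 218 lower ones (5.35%). The group of shortest spans, up to 2.969 kb, held 128 higher (3.14%) and 198 lower (4.86%). Span here was the genomic distance from start to end, introns included. Counts at a given level follow the length of the transcript instead, and its part in these shares was not tested.

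**Figure D1:**
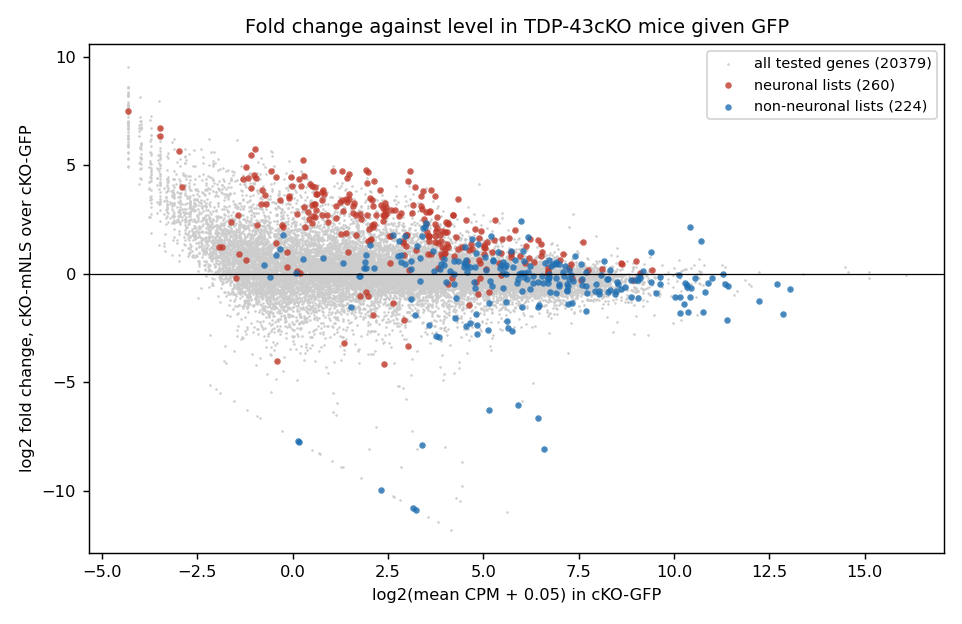
The log2 fold change of cKO-mNLS over cKO-GFP (y axis) is plotted against the log2 mean CPM in cKO-GFP (x axis, with 0.05 CPM added) for the 20379 tested genes in grey, with 260 genes of neuronal lists in red and 224 genes of non-neuronal lists in blue. Most red points lie above 0, while most blue points lie near or below 0. The column of points at the far left holds genes at 0 in cKO-GFP and the slanted lower edge genes at 0 in cKO-mNLS, whose fitted values are not bounded.

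The division of calls between higher and lower depended on which scaling was chosen. Counts were scaled by the TMM method, which centres most genes. When libraries were scaled instead to their summed oligodendrocyte and myelin genes, log2 fold changes shifted up by a median of 0.52 and 1519 genes were called, 1465 higher and 54 lower. That is 96.4% higher, against 55.6% under TMM. The size factors of DESeq2 changed the division little, with 1889 genes higher and 1277 lower, 59.7% higher. Those myelin sums ranged over 3-fold among the cKO-mNLS libraries alone, as the values above show. Whether calls lost under the oligodendrocyte scaling reflect that spread or the shift was not tested. Every statement below that genes fell is therefore a statement relative to the median gene. Leaving out single libraries also mattered: 1178 genes were called without cKO-GFP replicate 3 (846 higher and 332 lower) and 1625 without cKO-GFP replicate 1 (1001 and 624). Of the genes called higher, cKO-mNLS replicate 2 was the highest of its group in 59.4% and cKO-mNLS replicate 4 the lowest in 61.6%. Of the genes called lower, cKO-GFP replicate 3 was the highest of its group in 77% and cKO-GFP replicate 2 the lowest in 73.9%.

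Tardbp stood at 206, 218, 337 and 185 CPM in the cKO-mNLS libraries, against 120.4, 122 and 108 CPM in the cKO-GFP libraries and 143, 128 and 121 CPM in the NC-GFP libraries. It was higher in all 4 cKO-mNLS libraries (log2 fold change of 1.02 with an SE of 0.20, adjusted p = 0.00642), with replicate 3 the highest. The sources used here do not say whether transcripts of the viral construct were counted toward this gene or which part of it is deleted, so the value checks neither label.

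Neuronal lists held most of the rises among the listed genes. Of 260 tested members of 12 neuronal lists, 192 rose and 8 fell, with a median log2 fold change of 2.07, beside 8.93% and 7.13% of all genes. Where a list below has no share beside it, these shares of all tested genes are the comparison. Of 224 tested members of 13 non-neuronal lists, 11 rose and 53 fell, with a median of -0.20. In bulk RNA, a change in the number of cells of a type and a change in RNA per cell cannot be told apart. With cKO-GFP replicate 3 left out the non-neuronal lists had 16 falls, with cKO-GFP replicate 1 left out 29, and under the oligodendrocyte scaling 8.

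**Figure D2:**
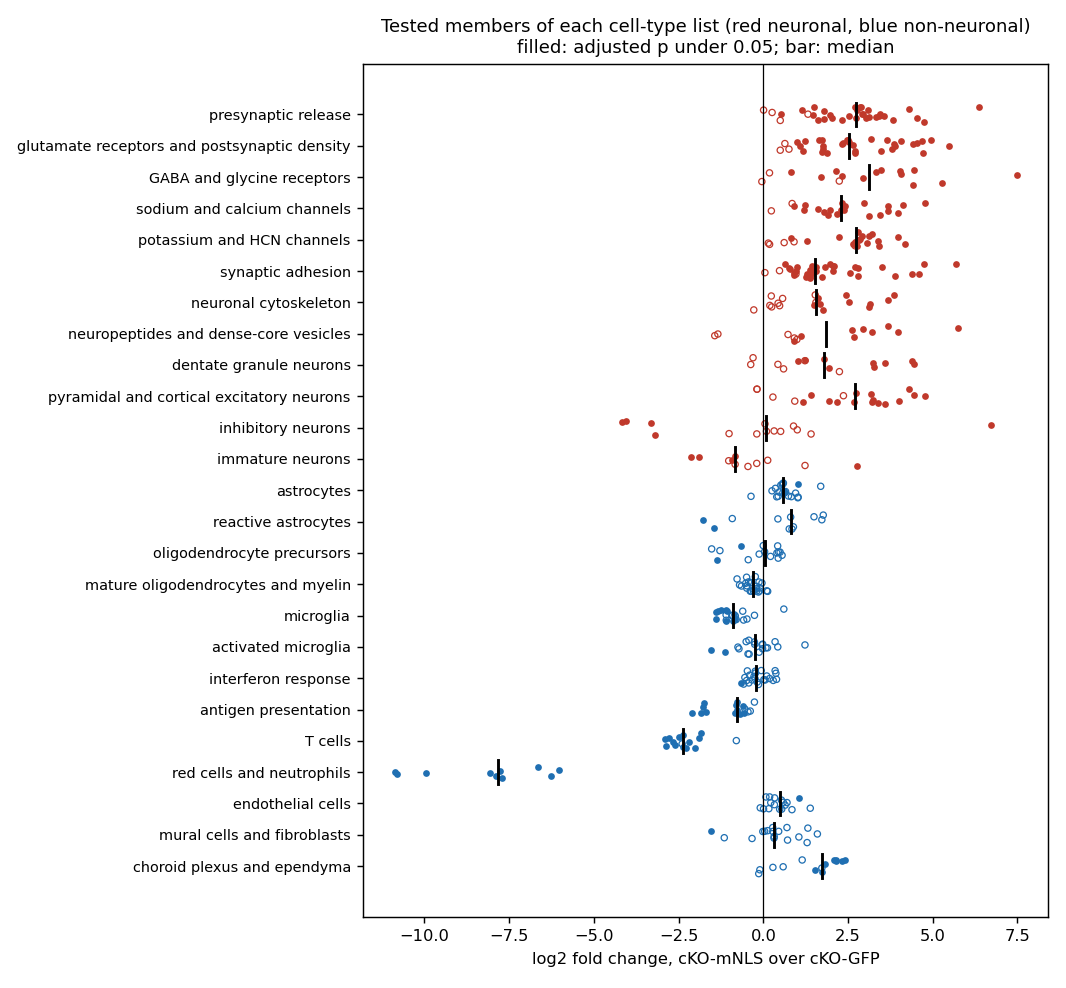
Each point is a tested gene of 1 of 25 cell-type lists (rows), placed by its log2 fold change of cKO-mNLS over cKO-GFP (x axis). Filled points passed an adjusted p under 0.05, and the bar marks the list median. The 10 lists of synapses, channels and excitatory neurons lie to the right with medians of 1.51 to 3.12, the inhibitory and immature neuron lists straddle 0, and the T cell and blood lists lie to the left.

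At the presynaptic terminal, 30 of 34 genes rose and 0 fell, with a median of 2.75. Bsn (ENSMUSG00000032589.14; chr9:108096022-108190384, minus strand, GRCm38/mm10), the scaffold Bassoon of the active zone, stood at 129, 351, 269 and 119 CPM in cKO-mNLS and 17.4, 22 and 20.9 CPM in cKO-GFP. All 4 cKO-mNLS libraries lay far above the 3 others, which were close together (log2 fold change of 3.43 with an SE of 0.37, adjusted p = 0.00143). Syn1, the vesicle protein synapsin I, stood at 62, 141, 86.5 and 52 CPM in cKO-mNLS and 9.98, 15.9 and 9.65 CPM in cKO-GFP (2.85, SE 0.34, adjusted p = 0.00154). Dnm1, the dynamin of vesicle retrieval, stood at 109.8, 257, 167 and 78.5 CPM in cKO-mNLS and 8.08, 15.4 and 8.67 CPM in cKO-GFP (3.83, SE 0.46, adjusted p = 0.00167). In each of these 3 genes cKO-mNLS replicate 2 was the highest and replicate 4 the lowest of the group. The t-SNARE gene Stx1a, or syntaxin 1A, reached 10.9 to 26.5 CPM in cKO-mNLS, against 1.81 to 3.39 CPM in cKO-GFP (2.88, SE 0.38, adjusted p = 0.00174). The 4 members not called were Rims2, Amph, Vamp1 and Sv2a, the last with a log2 fold change of 0.01. NC-GFP libraries held Bsn at 13, 14.5 and 14 CPM and Dnm1 at 9.40, 4.44 and 4.8 CPM, below every cKO-mNLS library.

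On the postsynaptic side, 31 of 34 genes for glutamate receptors and scaffolds rose and 0 fell (median 2.51). Dlgap1, a scaffold protein that links receptor complexes to Shank proteins, stood at 111, 168, 131 and 67.8 CPM in cKO-mNLS and 11.7, 27 and 16.1 CPM in cKO-GFP (log2 fold change of 2.71 with an SE of 0.34, adjusted p = 0.00167). Shank1 stood at 105, 113, 76.8 and 45.9 CPM in cKO-mNLS and 8.82, 18.3 and 13.9 CPM in cKO-GFP (2.64, SE 0.34, adjusted p = 0.00167). The groups did not overlap in either gene. Gria2, the AMPA receptor subunit that sets calcium permeability, was chosen after its values were seen, because of its promoter. It stood at 153, 315, 285 and 129.5 CPM in cKO-mNLS, 32.9, 53.1 and 33.3 CPM in cKO-GFP and 127, 179.6 and 157 CPM in NC-GFP (log2 fold change of 2.47 with an SE of 0.34, adjusted p = 0.00187 for cKO-mNLS against cKO-GFP). Its cKO-GFP libraries were the lowest of the 3 groups, which was not so for Bsn or Dnm1.

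RE1 elements are sites of the repressor REST, which keeps many neuronal genes silent outside neurons, and Gria2 is one of its classical targets. The core letters AGCACC and GGACAG, 2 bases apart, were searched on both strands in the 250 bases before each start site, in promoters from RefSeq (GRCm38.p6), after the calls were known. They occurred in 14 of 27025 gene symbols with a promoter (0.052%), in 6 of 1215 genes called higher (0.494%), in 5 of 10438 tested genes not called (0.048%) and in 0 of 1067 called lower. The 5 not called were Fbll1, Gad2, Lca5, Ogdhl and Scamp5, of which Gad2 is given below with the inhibitory neurons. The 6 called higher were Gria2, Sptbn4, Fam163b, Robo2, Hrh3 and Osbp2. The counts are small and are a description, as no site was measured. Of these, 4 windows are shown because their genes rose by over 2 on the log2 scale and exceeded 5 CPM in every cKO-mNLS library, with the matching letters in capitals and each sequence on the strand of its gene. They lie at chr3:80802968-80803029, minus strand for Gria2, chr7:27396259-27396320, minus strand for Sptbn4, chr2:27142541-27142602, minus strand for Fam163b and chr16:75447332-75447393, minus strand for Robo2. All RefSeq starts of a symbol were searched, including ones away from the start of the counted gene. The Sptbn4 window lies inside the counted gene (chr7:27356383-27447686). The Robo2 window lies far upstream of the counted gene (chr16:73891839-74411825). Whether the transcripts that rose began at these starts was not tested.
Gria2: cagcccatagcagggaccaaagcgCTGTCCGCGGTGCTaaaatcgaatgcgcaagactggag
Sptbn4: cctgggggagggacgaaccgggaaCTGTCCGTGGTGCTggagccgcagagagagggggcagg
Fam163b: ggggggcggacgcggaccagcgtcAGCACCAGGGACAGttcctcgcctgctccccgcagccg
Robo2: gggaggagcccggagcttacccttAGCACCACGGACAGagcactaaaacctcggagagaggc

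The match lies on the strand of the gene in Fam163b and Robo2 and on the opposite strand in Gria2 and Sptbn4. Sptbn4, the spectrin of the axon initial segment, stood at 24.6, 74.8, 49 and 28.5 CPM in cKO-mNLS and 0.668, 5.75 and 8.51 CPM in cKO-GFP (log2 fold change of 3.15 with an SE of 0.74, adjusted p = 0.0163). Fam163b stood at 13.3, 29.9, 32.2 and 7.94 CPM in cKO-mNLS and 0.211, 1.28 and 0.512 CPM in cKO-GFP (4.97, SE 0.86, adjusted p = 0.00429). Robo2, an axon guidance receptor for Slit proteins, stood at 33.7, 37.5, 23.1 and 16.2 CPM in cKO-mNLS and 4.92, 9.26 and 5.32 CPM in cKO-GFP (2.09, SE 0.35, adjusted p = 0.00354). The groups did not overlap in any of the 3. Hrh3, a histamine receptor, rose at lower levels, 1.25 to 8.80 CPM in cKO-mNLS against 0 to 0.158 CPM in cKO-GFP, and the lipid-binding protein gene Osbp2 rose the least (0.94, SE 0.27, adjusted p = 0.0333) and was not called without 4 of the 10 libraries in turn, cKO-GFP replicate 3, NC-GFP replicate 3 and cKO-mNLS replicates 2 and 3.

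Receptors for the inhibitory transmitter GABA and for glycine rose in 13 of 16 genes, with 0 falls and a median of 3.12, the same with Glra2, which was at 0 in cKO-GFP, set to its lower bound. Gabrb1, a GABA receptor subunit, stood at 66, 80.2, 72.7 and 34.4 CPM in cKO-mNLS, 15.9, 24 and 18.7 CPM in cKO-GFP and 71.1, 67.3 and 73.9 CPM in NC-GFP (log2 fold change of 1.70 with an SE of 0.26, adjusted p = 0.0026 for cKO-mNLS against cKO-GFP). All 3 cKO-GFP libraries lay below the other 7.

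Of sodium and calcium channel genes 20 of 22 rose (13 without cKO-GFP replicate 3), and of potassium and HCN channel genes 19 of 24 (12 without cKO-GFP replicate 3), with 0 falls and medians of 2.30 and 2.74. Scn2a, a sodium channel of axons, stood at 57.6, 185, 116 and 54.6 CPM in cKO-mNLS and 1.58, 4.63 and 5.12 CPM in cKO-GFP (log2 fold change of 4.78 with an SE of 0.55, adjusted p = 0.00143). Scn8a, the sodium channel of mature initial segments and nodes, stood at 52.8, 135, 105 and 42.8 CPM in cKO-mNLS and 10.5, 11.3 and 9.97 CPM in cKO-GFP (2.99, SE 0.37, adjusted p = 0.00167). The groups did not overlap in either gene, and cKO-mNLS replicates 1 and 4 were below replicates 2 and 3 in each. Cacna1a, the P/Q-type calcium channel of release sites, was detected well above 0 in every library, with 52.8, 63.5, 68.7 and 61.3 CPM in cKO-mNLS and 10.9, 23.3 and 15 CPM in cKO-GFP (1.91, SE 0.23, adjusted p = 0.00147). Kcnma1, the large-conductance calcium-activated channel, reached 52.3 to 129 CPM in cKO-mNLS, against 8.79 to 12.9 CPM in cKO-GFP (2.84, SE 0.33, adjusted p = 0.00143).

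Of 37 synaptic adhesion genes 34 rose and 0 fell (median 1.51), and 22 rose without cKO-GFP replicate 3. Cadm2, an immunoglobulin adhesion molecule, had 104, 107, 123 and 91.3 CPM in cKO-mNLS, 53.4, 60.6 and 45.5 CPM in cKO-GFP and 101, 95.4 and 102 CPM in NC-GFP (log2 fold change of 1.00 with an SE of 0.14, adjusted p = 0.00198 for cKO-mNLS against cKO-GFP). Adgrl3, the receptor latrophilin 3, had 70.3, 71.5, 72.1 and 51.3 CPM in cKO-mNLS, 20.4, 31.5 and 25.3 CPM in cKO-GFP and 50.8, 62.5 and 53.4 CPM in NC-GFP (1.36, SE 0.18, adjusted p = 0.00183). In both genes the cKO-GFP libraries lay below all others. Tenm2, a teneurin that binds latrophilins, was low in NC-GFP as well, with 44.2, 129, 55.4 and 31.3 CPM in cKO-mNLS, 1.65, 3.43 and 3.07 CPM in cKO-GFP and 2.84, 3.22 and 1.36 CPM in NC-GFP (4.58, SE 0.55, adjusted p = 0.00164). Lrrtm4, a postsynaptic partner of glypicans in granule neurons, stood at 7.93, 27, 26.1 and 7.4 CPM in cKO-mNLS and 0.351, 0.678 and 0.867 CPM in cKO-GFP (4.75, SE 0.63, adjusted p = 0.00183). Its cKO-mNLS replicates 2 and 3 were over 3 times replicates 1 and 4.

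**Figure D3:**
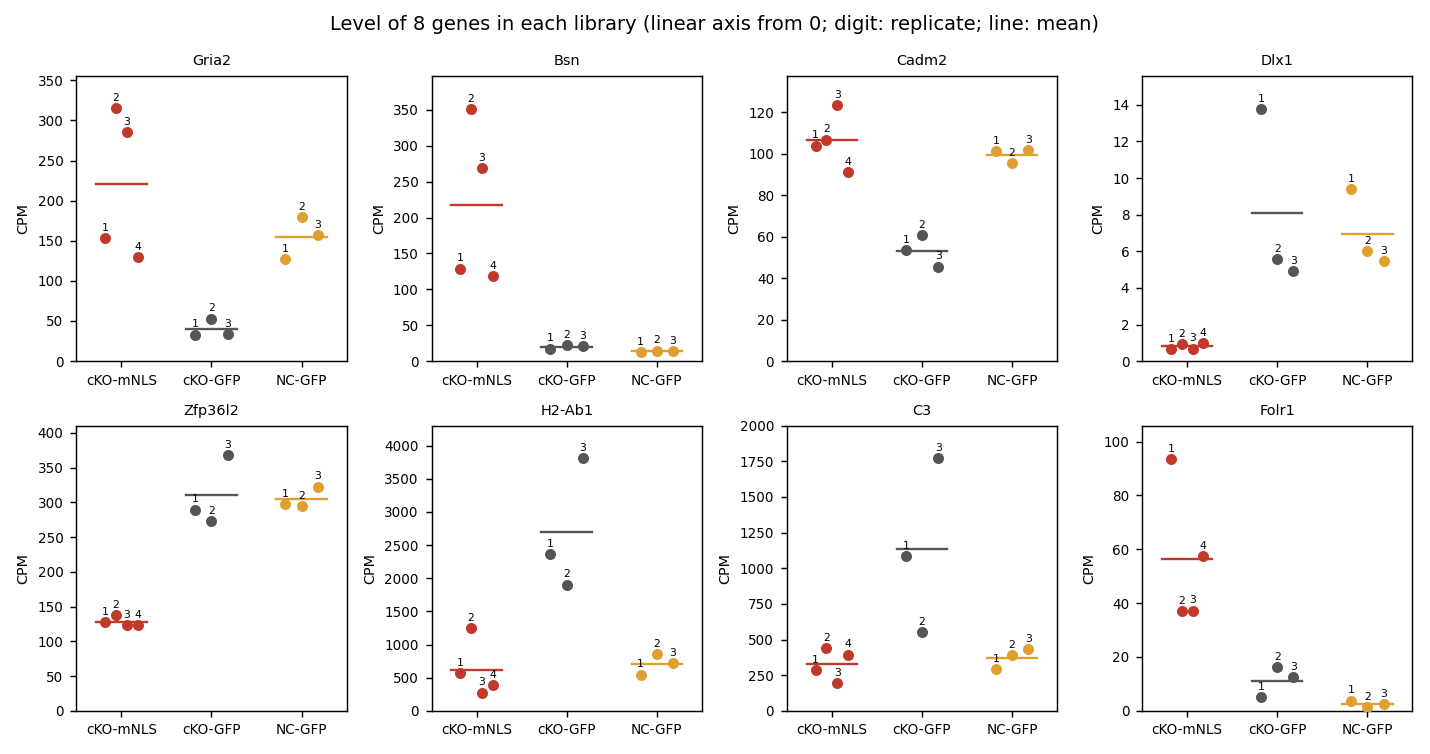
CPM (y axes, linear from 0) of 8 genes is shown for each library, with the 4 cKO-mNLS libraries at the left, the 3 cKO-GFP libraries in the middle and the 3 NC-GFP libraries at the right of each panel. The digit is the replicate and the line the group mean. Gria2 and Cadm2 were lowest in cKO-GFP, Bsn and Folr1 were high in cKO-mNLS alone, Dlx1 and Zfp36l2 were low in cKO-mNLS alone, and H2-Ab1 and C3 were highest in cKO-GFP.

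The cytoskeletal genes of neurons were more mixed: 10 of 19 rose (52.6%, beside 8.93% of all tested genes) and 0 fell (median 1.55). Ina, the neurofilament protein internexin, stood at 19.6, 41.9, 22.2 and 14 CPM in cKO-mNLS and 0.843, 1.88 and 2.32 CPM in cKO-GFP (log2 fold change of 3.86 with an SE of 0.45, adjusted p = 0.00143). Map2, which binds dendritic microtubules, stood at 206, 310.4, 246 and 152 CPM in cKO-mNLS and 69.1, 93.8 and 61.7 CPM in cKO-GFP (1.61, SE 0.23, adjusted p = 0.00203). Nefm, the medium neurofilament, and the microtubule regulator gene Stmn3 rose by 3.11 and 2.44. Those not called included the microtubule protein genes Mapt at 0.23, Map1a at 0.19 and Tubb3 at 0.25 and the membrane adaptor gene Ank2 at 0.57. Of 17 genes of neuropeptides and dense-core vesicles 14 could be tested, 9 rose (5 without cKO-GFP replicate 3) and 0 fell. The 9 were 64.3%, beside 8.93% of all tested genes. Scg2, a secretogranin, stood at 14.9, 24.5, 23.6 and 14.7 CPM in cKO-mNLS and 0.879, 2.39 and 1.26 CPM in cKO-GFP (3.68, SE 0.42, adjusted p = 0.00143). Cck, the peptide cholecystokinin, stood at 13.6, 50.8, 19.1 and 15.5 CPM in cKO-mNLS and 0.141, 0.918 and 0.315 CPM in cKO-GFP (5.76, SE 0.90, adjusted p = 0.00287). Bdnf, the neurotrophin of granule and pyramidal neurons, stood at 4.55, 9.18, 8.65 and 4.15 CPM in cKO-mNLS and 0.0351, 0.718 and 0.512 CPM in cKO-GFP (3.97, SE 0.76, adjusted p = 0.00617). For Cck and for the prohormone convertase gene Pcsk2 (2.66, SE 0.41, adjusted p = 0.0026), cKO-mNLS replicate 2 stood far above the other 3. The opioid peptide genes Pdyn and Penk had log2 fold changes of -1.43 and -1.34 and were not called.

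Of 15 dentate granule markers 9 rose (4 without cKO-GFP replicate 3 and 5 under the oligodendrocyte scaling), and of 20 tested markers of pyramidal and cortical neurons 15 rose, with 0 falls in either list and medians of 1.78 and 2.70. The rises were 60% and 75%, beside 8.93% of all tested genes. Calb1, the calcium buffer calbindin of mature granule neurons, stood at 13.2, 29.6, 26 and 12.4 CPM in cKO-mNLS and 0.808, 0.997 and 0.985 CPM in cKO-GFP (log2 fold change of 4.44 with an SE of 0.61, adjusted p = 0.00187). C1ql3, a secreted synaptic organiser, stood at 15.8, 45.5, 41.4 and 13.7 CPM in cKO-mNLS and 2.60, 3.03 and 3.43 CPM in cKO-GFP (3.27, SE 0.45, adjusted p = 0.00188). Trpc6, a cation channel, had 7.34, 16.5, 15.6 and 3.36 CPM in cKO-mNLS and 0.316, 0.918 and 1.42 CPM in cKO-GFP (3.59, SE 0.68, adjusted p = 0.00597). These 3 genes were about 2 times higher or more in cKO-mNLS replicates 2 and 3 than in replicates 1 and 4. Prox1, the granule neuron transcription factor that oligodendrocyte lineage cells also express, had a log2 fold change of 0.43 and was not called. Among markers of other excitatory neurons, Neurod2, a transcription factor, stood at 10.5, 22.6, 17 and 10.4 CPM in cKO-mNLS and 0.141, 1.16 and 0.788 CPM in cKO-GFP (4.44, SE 0.60, adjusted p = 0.00187). Nrgn, the calmodulin-binding protein neurogranin, stood at 59.8, 226, 139 and 74.8 CPM in cKO-mNLS and 5.27, 14.5 and 11.3 CPM in cKO-GFP (3.59, SE 0.54, adjusted p = 0.0026). Dkk3 rose by 1.95 and Mpped1 by 3.19.

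Markers of inhibitory neurons took another course. Of 14 tested, 1 rose (7.14%, beside 8.93% of all tested genes) and 4 fell (28.6%, beside 7.13%), with a median of 0.07. The 4 were the DLX homeobox genes, which specify GABA neurons in development. Dlx1 (ENSMUSG00000041911.3; chr2:71528113-71533981, plus strand) stood at 0.661, 0.936, 0.684 and 0.965 CPM in cKO-mNLS, 13.8, 5.59 and 4.92 CPM in cKO-GFP and 9.40, 6.01 and 5.48 CPM in NC-GFP (log2 fold change of -3.31 with an SE of 0.43, adjusted p = 0.00167). All 4 cKO-mNLS libraries were under 1 CPM and no other library was. Dlx2, its neighbour on chromosome 2, stood at 0.0348, 0.983, 0 and 0.179 CPM in cKO-mNLS and 7.66, 4.51 and 3.62 CPM in cKO-GFP (-4.18, SE 0.94, adjusted p = 0.013). Dlx5 and Dlx6, which share a locus on chromosome 6, were low in all groups, at 0 to 0.73 CPM (Dlx5) and 0 to 0.0695 CPM (Dlx6) in cKO-mNLS and 1.88 to 3.27 CPM and 0.519 to 0.949 CPM in cKO-GFP (-3.20, SE 0.97, adjusted p = 0.0438 for Dlx5, and -4.04, SE 1.22, adjusted p = 0.0425 for Dlx6). The RNA gene Dlx6os1, antisense to Dlx6, stood at 2.05, 0.843, 1.33 and 1.29 CPM in cKO-mNLS and 14.1, 11.5 and 5.36 CPM in cKO-GFP (-2.89, SE 0.37, adjusted p = 0.00167). The sources used here do not say whether strand was used in counting, so Dlx6 and Dlx6os1 cannot be told apart with certainty. The list had 1 or 2 falls without any 1 of the 3 cKO-GFP libraries, without NC-GFP replicate 1 or 3, or without cKO-mNLS replicate 2 or 3. The enzymes of GABA synthesis were not called, with log2 fold changes of 0.51 for Gad1 and -1.01 for Gad2. Lamp5, a marker of a cortical interneuron class, was the 1 riser, with 1.53, 6.51, 6.92 and 3.25 CPM in cKO-mNLS and 0, 0.0399 and 0.0788 CPM in cKO-GFP. Its cKO-GFP value rests on 3 counts, and the ratio was 114 (95% interval 38.7 to 554, counting error only).

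Immature neurons and their progenitors, which arise in the dentate gyrus, showed 1 rise and 4 falls among 11 tested markers (median -0.82). These were 9.09% and 36.4%, beside 8.93% and 7.13% of all tested genes. Eomes, the transcription factor TBR2 of intermediate progenitors, stood at 2.61, 0.749, 1.61 and 1.89 CPM in cKO-mNLS and 2.92, 6.66 and 13.2 CPM in cKO-GFP (log2 fold change of -2.13 with an SE of 0.52, adjusted p = 0.0181). Igfbpl1, expressed in young neurons, stood at 1.22, 0.375, 1.53 and 1.43 CPM in cKO-mNLS and 6.19, 3.95 and 2.72 CPM in cKO-GFP (-1.90, SE 0.48, adjusted p = 0.0198). Sox11, a transcription factor of young neurons, stood at 9.63, 16.6, 18.8 and 15.8 CPM in cKO-mNLS and 39.8, 27.2 and 19.7 CPM in cKO-GFP (-0.93, SE 0.28, adjusted p = 0.0411), and Sox4 fell by 0.82. Neurod1, which acts in new and mature granule neurons, rose to 3.65, 11.8, 9.46 and 3.36 CPM in cKO-mNLS, against 0.141, 1.72 and 1.26 CPM in cKO-GFP (2.76, SE 0.75, adjusted p = 0.0282). The groups came close for Eomes and Sox11, at 2.61 against 2.92 CPM and 18.8 against 19.7 CPM. These calls were fragile, with 1 or 2 falls without any 1 cKO-GFP library, without NC-GFP replicate 1 or 2 or without cKO-mNLS replicate 1 or 2, 1 in a fit of the 2 groups alone or with the replicate number as a block, 2 by voom, and 0 under the oligodendrocyte scaling. Neurod1 was not called without cKO-GFP replicate 1 or 3 or without cKO-mNLS replicate 2 or 3. Doublecortin (Dcx), of migrating neurons, was not called (-0.45).

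Rising genes outside all lists were named by smallest p among those with groups that did not overlap, at least 5 CPM in the higher group and a log2 fold change of 1 or more. Necab1, a neuronal calcium-binding protein, stood at 12.4, 37.9, 25.2 and 14.4 CPM in cKO-mNLS and 0.105, 0.399 and 0.433 CPM in cKO-GFP (log2 fold change of 6.16 with an SE of 0.61, adjusted p = 0.00143). Hpcal4, of the visinin family of calcium sensors, stood at 41.1, 81.6, 36.9 and 30.8 CPM in cKO-mNLS and 1.86, 3.31 and 3.55 CPM in cKO-GFP (4.03, SE 0.44, adjusted p = 0.00143). Nsg2, an endosomal protein of dendrites, stood at 89.8, 93.5, 63.7 and 56.8 CPM in cKO-mNLS and 12.9, 20.8 and 14.4 CPM in cKO-GFP (2.25, SE 0.24, adjusted p = 0.00143). Kinase signalling was represented by Mapk10, the neuronal JNK3, at 35.0 to 69.3 CPM in cKO-mNLS against 8.26 to 10.95 CPM in cKO-GFP (2.25, SE 0.25, adjusted p = 0.00143), and by its scaffold gene Mapk8ip2 (2.76, SE 0.31, adjusted p = 0.00143). Stxbp5l, a regulator of vesicle fusion, and Septin3, a neuronal septin, rose by 3.42 and 2.59. The 2 groups kept well apart in all of these. Clvs2, a lipid-binding protein gene, had 1068 counts over the cKO-mNLS libraries and 3 over the cKO-GFP libraries, a ratio of 273 (95% interval 93.1 to 1320, counting error only). The gene with the smallest p of all, Fut9, which makes a fucosylated glycan of neurons and astrocytes, varied little within groups, with 48.6, 62.6, 48 and 40.4 CPM in cKO-mNLS, 13.5, 14.2 and 14.5 CPM in cKO-GFP and 65.1, 66 and 69.6 CPM in NC-GFP (1.83, SE 0.16, adjusted p = 0.00143). Gpm6a, a membrane glycoprotein of neurites, had 198, 271, 199 and 142 CPM in cKO-mNLS, 39.6, 59.8 and 52.3 CPM in cKO-GFP and 118, 139 and 143 CPM in NC-GFP (2.00, SE 0.22, adjusted p = 0.00143). For both, cKO-GFP was the lowest of the 3 groups.

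Of 29 RNA-binding protein genes tested, 10 rose (34.5%) and 2 fell (6.90%), beside 8.93% and 7.13% of all tested genes. The risers were Tardbp and 9 genes best known as splicing or RNA regulators of neurons: Rbfox1, Rbfox2, Rbfox3, Celf4, Celf5, Khdrbs2, Khdrbs3, Nova2 and Srrm4. Rbfox1 stood at 15.6, 39.4, 24.4 and 13 CPM in cKO-mNLS and 0.843, 2.31 and 2.80 CPM in cKO-GFP (log2 fold change of 3.54 with an SE of 0.50, adjusted p = 0.00198). Celf4 stood at 54.2, 107, 67.4 and 41.5 CPM in cKO-mNLS and 3.66, 9.62 and 9.65 CPM in cKO-GFP (3.14, SE 0.43, adjusted p = 0.00187). Rbfox2, which many cell types express, rose less (1.77, SE 0.27, adjusted p = 0.00257). The 2 that fell were Mbnl1, a splicing regulator, with 276, 293, 259 and 319 CPM in cKO-mNLS and 454, 435 and 555 CPM in cKO-GFP (-0.75, SE 0.14, adjusted p = 0.00576), and Ptbp1, which represses neuronal exons outside neurons (-0.54, SE 0.14, adjusted p = 0.0264, not called without 6 of the 10 libraries in turn). The neuronal members Elavl3 (-0.06), Elavl4 (0.30) and Nova1 (0.10) were not called. Neither were other broadly expressed nuclear RNA-binding proteins, with log2 fold changes of -0.30 for Taf15 and 0.11 for Matr3. Gene totals do not measure splicing.

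**Figure D4:**
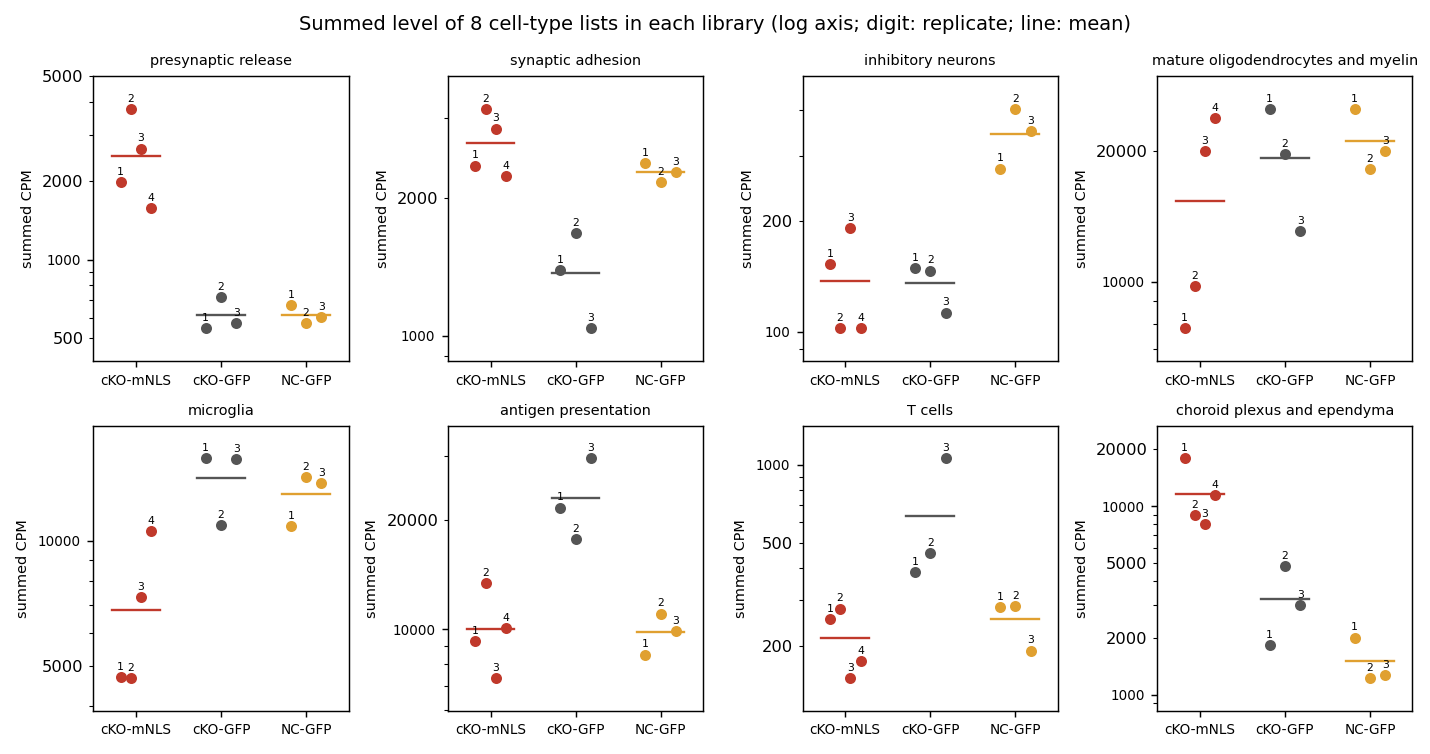
The summed CPM of 8 cell-type lists (y axes, log scale) is shown per library, with cKO-mNLS at the left, cKO-GFP in the middle and NC-GFP at the right. The digit is the replicate and the line the group mean. The presynaptic, microglia, antigen presentation, T cell and choroid plexus sums did not overlap between cKO-mNLS and cKO-GFP, while the inhibitory neuron and oligodendrocyte sums did.

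Lists of immune cells held most of the falls among the non-neuronal lists. Microglia, the macrophages of the brain, had 10 of 21 markers lower and 0 higher (median -0.91), beside 7.13% of all genes. Tmem119, a marker of resident microglia, stood at 54.2, 47.4, 68.2 and 82.2 CPM in cKO-mNLS and 223, 118 and 139 CPM in cKO-GFP (log2 fold change of -1.34 with an SE of 0.25, adjusted p = 0.00542). Aif1, which encodes IBA1, stood at 46.8, 50.2, 57.1 and 73.4 CPM in cKO-mNLS and 157, 83.3 and 208 CPM in cKO-GFP (-1.39, SE 0.26, adjusted p = 0.00553). Ctss, the lysosomal protease cathepsin S, stood at 1423, 1637, 1821 and 3173 CPM in cKO-mNLS and 5029, 3763 and 5701 CPM in cKO-GFP (-1.26, SE 0.28, adjusted p = 0.0113). Selplg, a selectin ligand, fell less (-0.83, SE 0.18, adjusted p = 0.0111). The groups did not overlap in these 4 genes. Within cKO-mNLS the summed list was 4704, 4677, 7302 and 10544 CPM, with replicate 4 near the lowest of the cKO-GFP sums of 15760.1, 10894 and 15696 CPM, and NC-GFP had 10818, 14203 and 13739 CPM. The count was 3 without cKO-GFP replicate 1 or 3, 6 without cKO-mNLS replicate 1 or 2, and 0 under the oligodendrocyte scaling (median -0.54, which is 1.04 below the median of all genes under that scaling). Fcrls was the 1 marker with a positive value (0.60, not called).

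Falling genes outside the lists were named in the same way as rising ones, by smallest p. Zfp36l2 (ENSMUSG00000045817.8; chr17:84183931-84187947, minus strand), which encodes a protein that destabilises AU-rich mRNAs, stood at 128, 137, 123 and 123 CPM in cKO-mNLS, 289, 273 and 368 CPM in cKO-GFP and 297, 295 and 323 CPM in NC-GFP (log2 fold change of -1.28 with an SE of 0.14, adjusted p = 0.00143). Dusp6, a phosphatase that switches off ERK, stood at 51.6, 47.2, 55.7 and 63.3 CPM in cKO-mNLS and 109, 128 and 136 CPM in cKO-GFP (-1.19, SE 0.13, adjusted p = 0.00143). Pik3cd, the leukocyte PI3 kinase subunit, stood at 58.3, 44.5, 53.6 and 54.7 CPM in cKO-mNLS and 114, 119 and 165 CPM in cKO-GFP (-1.33, SE 0.15, adjusted p = 0.00143). Their 4 cKO-mNLS libraries lay within a narrow band well below every other library of the 10. The interleukin 10 receptor gene Il10ra stood at 106, 131, 85.3 and 106 CPM in cKO-mNLS and 292, 223 and 335 CPM in cKO-GFP (-1.40, SE 0.18, adjusted p = 0.00167). Sla, an adaptor of lymphocyte receptors, the cytokine gene Il16, the exchange factor gene Fgd2, Sash3 and the matrix gene Emilin2 fell by 1.39 to 1.92. Of these, Emilin2 was called under the oligodendrocyte scaling too, and the other 8 were not.

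Activation genes of microglia gave few calls. Of 19 of them, 2 fell (10.5%, beside 7.13% of all tested genes) and 0 rose (median -0.25). Lgals3, or galectin 3, stood at 22.7, 32.7, 16.2 and 47.9 CPM in cKO-mNLS, 73.2, 69.9 and 116 CPM in cKO-GFP and 16.4, 19.99 and 30.5 CPM in NC-GFP (log2 fold change of -1.53 with an SE of 0.34, adjusted p = 0.0131). Axl, a receptor for dying cells, stood at 165, 268, 206 and 327 CPM in cKO-mNLS and 478, 377 and 739 CPM in cKO-GFP (-1.14, SE 0.26, adjusted p = 0.0131). The groups did not overlap in either gene, and neither was called without cKO-GFP replicate 3, while 5 activation genes fell without cKO-mNLS replicate 4 and 5 with the replicate number as a block. The disease-associated genes Clec7a (-0.51), Itgax (-0.75), Spp1 (-0.43) and Apoe (-0.72) were not called. Genes of the interferon response gave 0 rises and 1 fall (4.35%) among 23. That call was lost without any of 8 of the 10 libraries, and 5 interferon genes fell without cKO-GFP replicate 2.

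Antigen presentation fell in 12 of 16 genes (75%, beside 7.13% of all tested genes) and rose in 0 (median -0.77). H2-Ab1, a chain of MHC class II, stood at 574, 1253, 274 and 388 CPM in cKO-mNLS, 2361, 1904 and 3808 CPM in cKO-GFP and 544, 850.0 and 718 CPM in NC-GFP (log2 fold change of -2.11 with an SE of 0.45, adjusted p = 0.0106). Cd74, the invariant chain that escorts class II, stood at 2225, 3912, 846 and 1304 CPM in cKO-mNLS, 5939.7, 6116 and 10289.9 CPM in cKO-GFP and 1598, 2681 and 2339 CPM in NC-GFP (-1.85, SE 0.44, adjusted p = 0.0173). For both, cKO-GFP was above the other 2 groups, replicate 3 was its highest library, and cKO-mNLS replicate 2 was the highest of its own. The immunoproteasome genes Psmb8 and Psmb9, which cut peptides for MHC class I, fell less, by 0.77 and 0.81. Their groups came close, at 220.0 against 222 CPM (Psmb8) and 42.1 against 46.7 CPM (Psmb9). The class I heavy chain and light chain genes H2-D1 (-0.55) and B2m (-0.45) were not called. The 12 falls were 0 without cKO-GFP replicate 3, 2 without cKO-GFP replicate 1, 6 without cKO-mNLS replicate 3, 7 without cKO-mNLS replicate 4, 6 in a fit of the 2 groups alone, 7 with no low-count filter, 2 under a replicate block, and 0 under the oligodendrocyte scaling (median -0.28).

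MHC class II promoters carry a conserved array of short boxes, which ends in a Y box (CCAAT, or ATTGG on the other strand) bound by NF-Y and holds an X2 box that resembles the cyclic AMP element TGACGTCA. The letters CCAAT were searched on both strands in the 250 bases before the start. They occurred in 37.5% of the 27025 symbols, in 10 of 11 antigen presentation genes with a promoter, in 38.5% of the genes called higher and in 40.5% of those called lower. TGACGTCA, searched likewise, occurred in 1.77% of all symbols and in 1 of the 11, H2-Aa. Windows of H2-Aa (chr17:34287849-34287931, minus strand), H2-Eb1 (chr17:34305748-34305830, plus strand) and Psmb9 (chr17:34187331-34187398, minus strand) from RefSeq, GRCm38.p6, are shown because these genes fell together, with both kinds of match in capitals.
H2-Aa: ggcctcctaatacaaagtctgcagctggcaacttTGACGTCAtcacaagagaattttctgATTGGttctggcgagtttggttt
H2-Eb1: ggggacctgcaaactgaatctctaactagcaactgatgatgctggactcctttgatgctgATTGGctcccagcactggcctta
Psmb9: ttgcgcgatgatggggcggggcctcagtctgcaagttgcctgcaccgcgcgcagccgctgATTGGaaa

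In all 3 windows the match reads ATTGG on the strand of the gene and follows the letters ctg. How often these letters precede ATTGG in other promoters was not counted. Psmb9 is not an MHC class II gene, and its window lies inside the counted gene (chr17:34181987-34187764). H2-Aa stood at 511, 990.1, 198 and 339 CPM in cKO-mNLS and 1477, 1343 and 2362 CPM in cKO-GFP (log2 fold change of -1.76 with an SE of 0.44, adjusted p = 0.0207). H2-Eb1 stood at 398, 767, 155 and 243 CPM in cKO-mNLS and 1142, 987 and 1862 CPM in cKO-GFP (-1.77, SE 0.45, adjusted p = 0.0222). These 2 genes, chosen after their values were seen, kept the order of libraries of H2-Ab1 within each group.

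T cell genes fell in 13 of 15 (86.7%, beside 7.13% of all tested genes) and rose in 0 (median -2.39). Trac, the constant chain of the alpha T cell receptor, stood at 9.60, 4.92, 2.54 and 5.04 CPM in cKO-mNLS, 14.8, 24.4 and 46.4 CPM in cKO-GFP and 13.7, 15.5 and 9.32 CPM in NC-GFP (log2 fold change of -2.37 with an SE of 0.45, adjusted p = 0.00624). Trbc2, a beta chain gene, stood at 2.43, 2.72, 1.05 and 1.25 CPM in cKO-mNLS and 8.61, 11.7 and 20.4 CPM in cKO-GFP (-2.87, SE 0.43, adjusted p = 0.00241). Lck, the first kinase of the receptor, and Gzmb, the protease granzyme B of cytotoxic cells, fell by 2.29 and 2.90. The summed list was 254, 279, 150.5 and 175 CPM in cKO-mNLS, 386, 455 and 1058 CPM in cKO-GFP and 283, 284 and 192 CPM in NC-GFP, so that cKO-GFP replicate 3 alone held more than the rest of its group together. Without that library 4 of the 15 fell, under the oligodendrocyte scaling 2, and with the replicate number as a block 8.

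Genes of red blood cells and neutrophils were nearly absent from cKO-mNLS. All 10 tested fell, and their sum was 0.452, 9.22, 0.765 and 0.715 CPM in cKO-mNLS, 154, 695 and 94.2 CPM in cKO-GFP and 63.3, 175 and 26.4 CPM in NC-GFP. S100a9, a neutrophil protein, had 0 CPM in all 4 cKO-mNLS libraries and 18, 2.95 and 5.71 CPM in cKO-GFP, which makes it at least 318-fold lower when 3 counts are allowed for the whole group (adjusted p = 0.00541). Alas2, the first enzyme of heme synthesis in red cells, had 0 CPM in the 4 cKO-mNLS libraries and 4.71, 21.6 and 2.05 CPM in cKO-GFP, at least 316-fold lower. The neutrophil granule gene Ngp had 0.0695, 0.0936, 0 and 0 CPM in cKO-mNLS and 19.3, 6.62 and 5.40 CPM in cKO-GFP (-7.89, SE 1.38, adjusted p = 0.00451). Replicate 3 of NC-GFP was low for S100a9 and Ngp as well, at 0.395 and 0 CPM. Red cells and neutrophils in brain tissue come with blood, and the sources used here do not say whether perfusion or sorting differed between groups. By voom with quality weights 2 of the 10 fell, with no low-count filter 6 and under the oligodendrocyte scaling 6. With the stricter filter 4 fell, but S100a9, Alas2, Ngp and Retnlg were then not tested.

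Of 21 astrocyte genes 2 rose (9.52%, beside 8.93% of all tested genes) and 0 fell. Positive log2 fold changes were found in 20 of the 21 (median 0.59), beside 9976 of the 20379 genes tested (median -0.01). Slc1a2, the main glutamate transporter of astrocytes, stood at 2024, 833, 1554 and 1029 CPM in cKO-mNLS, 474, 852 and 697 CPM in cKO-GFP and 1880.1, 2112 and 2192 CPM in NC-GFP (log2 fold change of 1.01 with an SE of 0.30, adjusted p = 0.0418). Its groups overlapped through cKO-mNLS replicate 2. Mfge8, a bridge to dying cells, stood at 94.4, 64.6, 93.7 and 93.6 CPM in cKO-mNLS, 46.8, 61.8 and 61.5 CPM in cKO-GFP and 174, 189 and 189.5 CPM in NC-GFP (0.61, SE 0.16, adjusted p = 0.0261). Neither call held without cKO-GFP replicate 1 or without cKO-mNLS replicate 1 or 3. The list had 8 rises without cKO-mNLS replicate 4, 6 without cKO-mNLS replicate 2, 4 without cKO-GFP replicate 2, 8 by DESeq2 and 5 by voom. The summed list was 5514, 2393, 4031 and 2540.3 CPM in cKO-mNLS, 1562, 2478 and 2137 CPM in cKO-GFP and 5287, 6373 and 6265 CPM in NC-GFP. Of 11 tested genes of reactive astrocytes 0 rose and 2 fell (18.2%, beside 7.13% of all tested genes), while their median was positive, at 0.81. The 2 are used by microglia and immune cells too. C3, the central complement protein, stood at 286, 440.1, 194 and 395 CPM in cKO-mNLS, 1087, 552 and 1774 CPM in cKO-GFP and 289.9, 390.0 and 435 CPM in NC-GFP (-1.79, SE 0.37, adjusted p = 0.00856). Cd44, a hyaluronan receptor, stood at 29, 45, 20.9 and 34 CPM in cKO-mNLS and 81.6, 61.8 and 122 CPM in cKO-GFP (-1.46, SE 0.27, adjusted p = 0.00574). C3 was not called without cKO-GFP replicate 3, while 2 members rose without cKO-GFP replicate 2, and 2 by voom.

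Mature oligodendrocytes, which make myelin, showed no call: 0 of 25 rose or fell in edgeR under TMM, and the median was -0.29. The member of smallest p, Hapln2, a matrix protein of nodes, stood at 30.5, 27, 55.7 and 71.1 CPM in cKO-mNLS and 79.4, 96.1 and 49.6 CPM in cKO-GFP (log2 fold change of -0.70 with an SE of 0.34, adjusted p = 0.189). Fa2h, which makes hydroxylated myelin lipids, stood at 36, 51.7, 118 and 139.6 CPM in cKO-mNLS and 179, 172 and 92.6 CPM in cKO-GFP (-0.78, SE 0.41, adjusted p = 0.236). The gap junction gene Gjb1 was not called either (-0.64, SE 0.41, adjusted p = 0.336). In all 3 the groups overlapped, and cKO-mNLS replicates 1 and 2 were lower than replicates 3 and 4. Of 15 genes of oligodendrocyte precursors 2 fell (13.3%, beside 7.13% of all tested genes) and 0 rose (median 0.04). Gpr17, a receptor of precursors that have begun to differentiate, stood at 14.8, 12.2, 9.74 and 19 CPM in cKO-mNLS, 44.5, 36.3 and 26.4 CPM in cKO-GFP and 14.7, 3.87 and 7.63 CPM in NC-GFP (-1.36, SE 0.38, adjusted p = 0.0323). Vcan, a proteoglycan, was just past the threshold, with overlapping groups (-0.65, SE 0.20, adjusted p = 0.0479). Neither held without any 1 of the cKO-GFP libraries. The precursor genes Pdgfra (0.45) and Olig2 (0.04) were not called.

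In vessels, 1 of 17 endothelial genes rose, the tight junction gene Ocln at 43, 25.9, 18.4 and 18 CPM in cKO-mNLS and 9.52, 15.4 and 13.6 CPM in cKO-GFP (log2 fold change of 1.04 with an SE of 0.32, adjusted p = 0.0476), and 1 of 17 genes of mural cells and fibroblasts fell, the peptidase gene Anpep at 22.1, 44.1, 7.20 and 15.7 CPM in cKO-mNLS and 52.5, 47.1 and 95.6 CPM in cKO-GFP (-1.55, SE 0.47, adjusted p = 0.0454). These shares, 5.88% in each list, lay below the 8.93% higher and 7.13% lower of all tested genes. Both calls were lost without most single libraries, and choroid plexus epithelium also expresses Ocln. Endothelial Cldn5 (0.08), Flt1 (0.16) and Pecam1 (0.33) were not called.

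Of 14 genes of choroid plexus and ependyma 8 rose (57.1%, beside 8.93% of all tested genes) and 0 fell (median 1.73). The 8 were all of the choroid epithelium, which secretes cerebrospinal fluid: Ttr, Folr1, Enpp2, Aqp1, Kcnj13, Sostdc1, Kl and Otx2. Folr1, its folate receptor, stood at 93.5, 36.9, 37.2 and 57.5 CPM in cKO-mNLS, 4.96, 16.2 and 12.4 CPM in cKO-GFP and 3.76, 1.49 and 2.43 CPM in NC-GFP (log2 fold change of 2.33 with an SE of 0.47, adjusted p = 0.00835). Ttr, the thyroxine carrier transthyretin, stood at 9574, 4946, 4026 and 5834 CPM in cKO-mNLS, 477, 2257 and 1377 CPM in cKO-GFP and 497, 289 and 209 CPM in NC-GFP (2.15, SE 0.51, adjusted p = 0.0168). Aqp1, a water channel, stood at 36.9, 14.8, 13 and 21.5 CPM in cKO-mNLS and 3.02, 9.06 and 6.42 CPM in cKO-GFP (1.81, SE 0.42, adjusted p = 0.0151). In all 3, cKO-mNLS replicate 1 was the highest library and cKO-GFP replicate 2 the highest of its group. The list summed to 17870.4, 8934, 8003 and 11436 CPM in cKO-mNLS, 1836, 4814 and 2978 CPM in cKO-GFP and 2005, 1228 and 1276 CPM in NC-GFP, so that it was detected in every library. Enpp2, or autotaxin, which oligodendrocytes also make, stood at 7026, 3564, 3534 and 4912 CPM in cKO-mNLS and 1275, 2266 and 1442 CPM in cKO-GFP (1.52, SE 0.31, adjusted p = 0.00836). Genes of ciliated ependymal cells were not called, with log2 fold changes of 0.58 for Foxj1, -0.10 for Ccdc153 and -0.14 for Tmem212. The choroid gene Clic6 was not called either. The count of 8 was 2 without cKO-GFP replicate 3, 4 without cKO-GFP replicate 1, 5 without cKO-mNLS replicate 1 or 4 or NC-GFP replicate 2 or 3, 5 in a fit of the 2 groups alone, 3 with no low-count filter and 2 with the replicate number as a block. Choroid genes were thus higher in the same group as neuronal genes, and their part in the neuronal rises was not tested. Within cKO-mNLS, replicate 2 had the highest presynaptic and sodium and calcium channel sums and the third of the 4 choroid sums. Replicate 1 had the highest choroid sum and also the highest neuropeptide sum (697 CPM), and replicate 3 the highest dentate granule sum (1299 CPM).

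Genes of cell state moved beside those of cell types. Cytosolic ribosomal protein genes fell in 36 of 46 (78.3%, beside 7.13% of all tested genes) and rose in 0 (median -0.75). Rps4x stood at 119.9, 138, 112 and 167 CPM in cKO-mNLS, 239.9, 207 and 393 CPM in cKO-GFP and 176, 199 and 176 CPM in NC-GFP (log2 fold change of -1.06 with an SE of 0.22, adjusted p = 0.008 for cKO-mNLS against cKO-GFP), and Rpl30 fell by 0.74. In both, every cKO-mNLS library lay below every cKO-GFP library, of which replicate 3 was the highest. Ribosomal protein genes have many processed copies in the genome, so their counts are uncertain. The 36 falls were 2 without cKO-GFP replicate 3, 19 without cKO-GFP replicate 1, 23 without cKO-mNLS replicate 3 and 0 under the oligodendrocyte scaling (median -0.34). Nuclear genes of oxidative phosphorylation had 0 calls of 32 in edgeR (median 0.04), with 3 higher by DESeq2. The 13 mitochondrially encoded genes had 0 calls as well (median 0.37), with 4 higher by DESeq2 and 2 by voom. All 13 were positive, and mt-Nd2 did not overlap between groups, at 2191, 1333, 1805 and 1518 CPM in cKO-mNLS and 1049, 1229.8 and 1065 CPM in cKO-GFP (0.62, SE 0.21, adjusted p = 0.0647).

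Immediate early genes, which activity or handling of cells switches on within minutes, fell and rose in the same libraries: 10 of 21 fell and 3 rose. These were 47.6% and 14.3%, beside 7.13% and 8.93% of all tested genes. Fos stood at 148, 187, 165 and 228 CPM in cKO-mNLS, 315, 527 and 656 CPM in cKO-GFP and 305, 293 and 271 CPM in NC-GFP (log2 fold change of -1.46 with an SE of 0.23, adjusted p = 0.00272). Btg2 stood at 90.6, 106, 92.8 and 134 CPM in cKO-mNLS and 188, 240.1 and 289 CPM in cKO-GFP (-1.17, SE 0.18, adjusted p = 0.00248). Junb and Ier5 fell by 1.29 and 0.87. All 4 are expressed in many cell types, and their cKO-mNLS libraries were the lowest of all. The 3 that rose were Npas4, Egr4 and Nr4a3. Npas4, which is largely restricted to neurons, stood at 5.60, 3.61, 18.8 and 3.68 CPM in cKO-mNLS and 0.141, 2.07 and 0.63 CPM in cKO-GFP (3.06, SE 0.93, adjusted p = 0.0445). Egr4 stood at 0.8, 1.69, 3.58 and 2.54 CPM in cKO-mNLS and 0, 0.0798 and 0.236 CPM in cKO-GFP (4.31, SE 1.09, adjusted p = 0.0265). Nr4a3 stood at 194, 261, 60.1 and 81.9 CPM in cKO-mNLS and 32.6, 54.5 and 52.1 CPM in cKO-GFP (1.68, SE 0.45, adjusted p = 0.0271). Replicate 3 was the highest cKO-mNLS library for Npas4 and Egr4 but the lowest for Nr4a3. Arc (0.41) and Egr1 (-0.29) were not called. There were 5 falls without cKO-GFP replicate 3 and 0 under the oligodendrocyte scaling, and there were 0 rises without cKO-GFP replicate 1 and 1 without cKO-GFP replicate 3 or cKO-mNLS replicate 1 or 3.

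**Figure D5:**
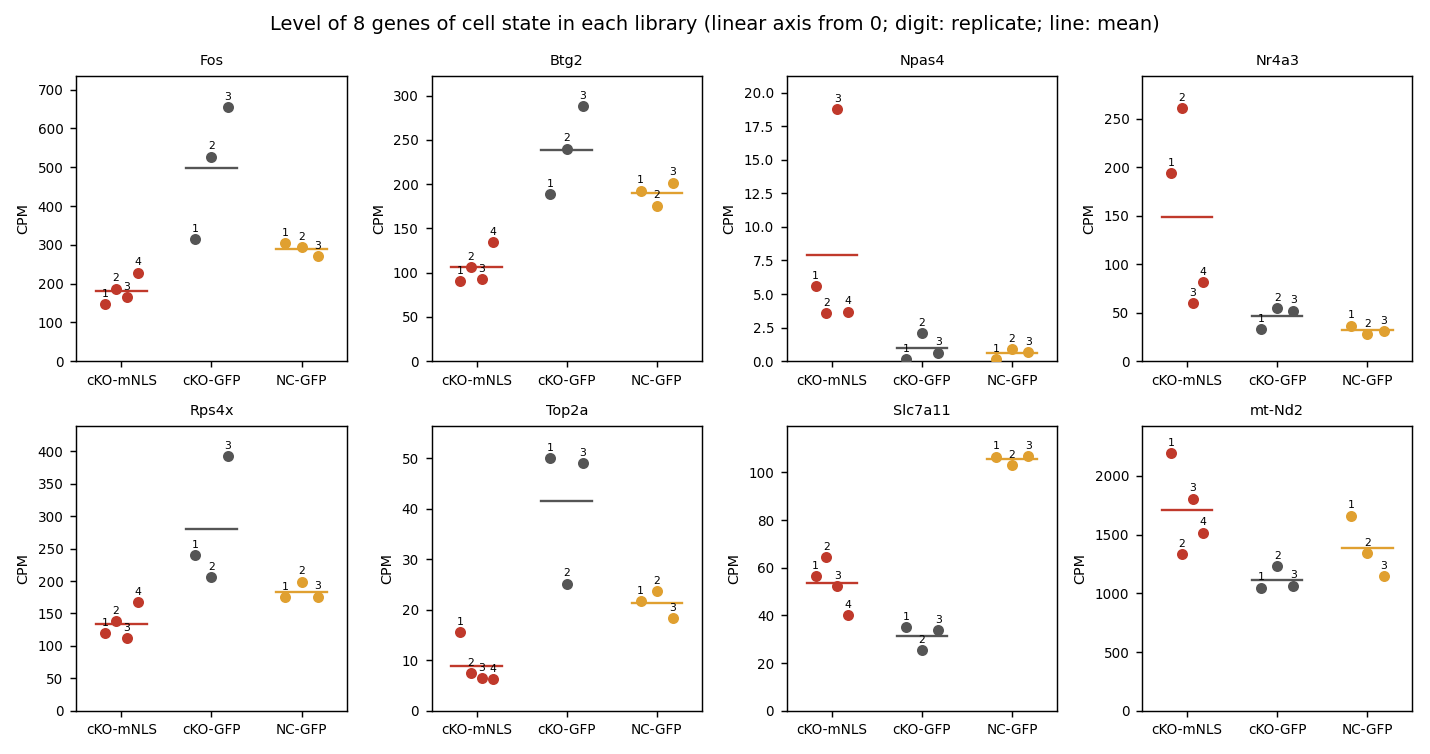
CPM (y axes, linear from 0) of 8 genes of cell state is shown per library, with cKO-mNLS at the left, cKO-GFP in the middle and NC-GFP at the right. The digit is the replicate and the line the group mean. Fos and Btg2 were lowest in cKO-mNLS and Npas4 and Nr4a3 highest there. Rps4x and Top2a were highest in cKO-GFP, Slc7a11 was highest in NC-GFP, and mt-Nd2 in cKO-mNLS lay above cKO-GFP.

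Genes of cell division fell in 10 of 18 (55.6%, beside 7.13% of all tested genes) and rose in 0 (median -1.47). Mcm2, a subunit of the DNA replication helicase, stood at 5.53, 6.88, 7.81 and 7.22 CPM in cKO-mNLS, 29.4, 16.4 and 19.6 CPM in cKO-GFP and 7.31, 9.54 and 9.15 CPM in NC-GFP (log2 fold change of -1.67 with an SE of 0.24, adjusted p = 0.00198). Top2a, the topoisomerase of dividing cells, stood at 15.6, 7.45, 6.40 and 6.22 CPM in cKO-mNLS, 50.1, 25.2 and 49 CPM in cKO-GFP and 21.6, 23.7 and 18.4 CPM in NC-GFP (-2.21, SE 0.34, adjusted p = 0.00266). Rrm2, which makes deoxynucleotides, and Mcm3 fell by 2.65 and 1.27. In these 4 genes the groups did not overlap. Mki67, the proliferation antigen Ki-67, was chosen for its promoter after its values were seen, and its groups overlapped (70.8, 38.3, 44.6 and 20.9 CPM in cKO-mNLS and 122, 61 and 133 CPM in cKO-GFP, -1.27, SE 0.35, adjusted p = 0.0303). The 10 falls were 4 without cKO-GFP replicate 1 or 3, 6 without NC-GFP replicate 1 or 2 or cKO-mNLS replicate 2 or 3, 6 in a fit of the 2 groups alone and 0 under the oligodendrocyte scaling (median -0.95). T cells, microglia and progenitors can all divide, and which cells these transcripts came from was not tested.

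Promoters of cell-cycle genes often hold repeated CCAAT boxes and the CHR element, TTTGAA. The CCAAT letters occurred in 14 of 16 cell division genes with a promoter, beside 37.5% of all symbols, and TTTGAA in 4 of 16, beside 18.3%. The windows of Top2a (chr11:99024197-99024416, minus strand) and Mki67 (chr7:135716453-135716577, minus strand), from RefSeq, GRCm38.p6, show how densely the boxes can lie, with both kinds of match on either strand in capitals.
Top2a: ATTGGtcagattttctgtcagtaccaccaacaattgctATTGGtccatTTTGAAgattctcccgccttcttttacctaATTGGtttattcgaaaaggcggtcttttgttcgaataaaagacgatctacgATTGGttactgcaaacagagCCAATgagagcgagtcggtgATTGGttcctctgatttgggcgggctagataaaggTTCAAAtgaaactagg
Mki67: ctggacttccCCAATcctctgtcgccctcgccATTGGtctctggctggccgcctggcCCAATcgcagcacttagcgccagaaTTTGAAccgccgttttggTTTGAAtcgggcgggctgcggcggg

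Other programmes of cell state gave few calls. Of 19 genes of cholesterol synthesis, which myelin growth draws on, 1 fell (5.26%, beside 7.13% of all tested genes) and 0 rose (median -0.26). It was Mvd, at 1.56, 1.83, 3.38 and 3.29 CPM in cKO-mNLS and 6.82, 4.99 and 5.28 CPM in cKO-GFP (log2 fold change of -1.18 with an SE of 0.35, adjusted p = 0.0388), and its call was lost without most single libraries. Of 16 genes of the integrated stress response 3 fell (18.75%, beside 7.13% of all tested genes) and 1 rose (6.25%, beside 8.93%). Cebpb, which also acts in myeloid cells, stood at 66.4, 71, 49.6 and 103 CPM in cKO-mNLS and 182, 118 and 298 CPM in cKO-GFP (-1.46, SE 0.29, adjusted p = 0.00795). Mthfd2 and Atf4, the factor at the centre of the response, fell by 0.98 and 0.56, and neither was called without cKO-GFP replicate 1 or 3. Slc7a11, the cystine transporter of astrocytes, rose, with 56.5, 64.5, 52.4 and 40.3 CPM in cKO-mNLS, 35, 25.5 and 34 CPM in cKO-GFP and 107, 103 and 107 CPM in NC-GFP (0.76, SE 0.17, adjusted p = 0.0124).

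Of 14 genes of the p53 response 2 rose (14.3%, beside 8.93% of all tested genes) and 0 fell. Zmat3 stood at 38.5, 32.9, 35 and 26.4 CPM in cKO-mNLS and 16.5, 23.3 and 17.2 CPM in cKO-GFP (log2 fold change of 0.81 with an SE of 0.19, adjusted p = 0.0154). Plk2, which neuronal activity also induces, stood at 56.7, 72.3, 44.5 and 61.8 CPM in cKO-mNLS and 11.9, 37.1 and 19.9 CPM in cKO-GFP (1.36, SE 0.33, adjusted p = 0.0185). Both calls were lost without cKO-GFP replicate 3, that of Zmat3 also without cKO-GFP replicate 1, and Cdkn1a (0.34), Mdm2 (0.13) and Bax (-0.18) were not called. Of 12 heat shock genes 1 fell (8.33%, beside 7.13% of all tested genes). It was Hspa1b, at 166, 251, 266 and 121 CPM in cKO-mNLS and 313, 694 and 306 CPM in cKO-GFP (-1.12, SE 0.33, adjusted p = 0.04). Its call was lost without 9 of the 10 libraries in turn. It shares nearly its whole sequence with Hspa1a (-1.21, not called), so counts of the pair are uncertain.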

How the data were processed

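RNA was extracted with a micro kit from sorted cells and made into libraries from 1 ng with SMART-Seq Stranded, per the labels' protocols. The deposited values are estimated counts and TPM per gene. DRAGEN and the build GRCm38/mm10 are named in the submitters' processing notes, while the sources used here do not give versions, the annotation release, counting settings or whether strand was used. The TPM values that the authors deposited beside the estimated counts were not used in tests. Estimated counts (5.84% not whole within 1e-06) were rounded. Genes were kept by filterByExpr by group, which left 20379 of 55487, and fitted with edgeR 4.0.16 (TMM, robust quasi-likelihood, 3 groups in 1 model with 7 residual degrees of freedom) in R 4.3.3. The contrast was cKO-mNLS minus cKO-GFP, and adjusted p under 0.05 after Benjamini-Hochberg adjustment over all tested genes was called. Each SE was worked back from the test, as the size of the log2 fold change over the square root of F. CPM were scaled by TMM. Counts carry sampling error at totals of 17164206 to 29204293, and intervals cover counting error only.

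Members, gene lists and tests were chosen with earlier results of these data known. The 35 lists held 714 genes, of which 11 were not tested. Genes were named by a rule: Tardbp, up to 4 members of smallest p per list, any called list member opposite to its list, and up to 14 per direction outside the lists with non-overlapping groups, at least 5 CPM in the higher group and a log2 fold change of 1 or more in size. Some genes that met the rule are given in counts only or are not reported here, and members given as not called, Gria2 and the other genes named for a promoter, Dlx5, Sox4, Mbnl1, Ptbp1, Npas4, Egr4 and Nr4a3 were chosen after their values were seen. Alternatives were DESeq2 1.42.0 and its size factors, voom with quality weights (limma 3.58.1), scaling to oligodendrocyte and myelin genes, no low-count filter or a stricter one (at least 1 CPM in 6 libraries), no robust estimation, the 2 groups alone, a block for replicate number, and leaving out each library. Promoters came from RefSeq (GRCm38.p6) and matched 526 of the 714 list genes by symbol.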

Additional observations from a re-analysis of the deposited data

Results flagged for a closer look

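Among the 4 cKO-mNLS libraries, 6 of 142 genes and 1 of 35 list sums had 1 library far from the other 3, by the gap to its nearest neighbour over the range of the group (Dixon's test at the 95% level). Chance flags about 1 in 20 groups, and 7 flags among 177 items is no more than that. Groups of 3 libraries cannot be tested this way.

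Replicate 2 was involved in 4 of the 7. It was the highest for Cck (50.8 CPM) and Pcsk2 (72.8 CPM), both of neuropeptide cells, the lowest for Mfge8 (64.6 CPM), an astrocyte gene, and the highest for the summed red cell and neutrophil genes (9.22 CPM). Replicate 4 was the lowest for Adgrl3 (51.3 CPM), replicate 1 the highest for Top2a (15.6 CPM) and replicate 3 the highest for Npas4 (18.8 CPM). In each of the 6 genes and in the list sum the far library still lay on the same side of all cKO-GFP libraries as the other 3.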

How the results depend on the processing

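In edgeR 3273 genes were called (1819 higher and 1454 lower), and 6040 had an unadjusted p under 0.05. Scaling to oligodendrocyte and myelin genes gave 1519 calls with 54 lower, 2 falls in neuronal lists, and 7 rises and 8 falls in non-neuronal lists. It also turned Nkx6-2, an oligodendrocyte transcription factor that was never called, to 0.0942, against -0.39 under TMM. DESeq2 gave 2739 higher genes and 18 rises in non-neuronal lists, and voom 17 such rises and 5 falls in neuronal lists. No low-count filter gave 7 rises and 33 falls in non-neuronal lists. The stricter filter gave 5 falls in neuronal lists, with Dlx5 and Dlx6 not tested. The fit of the 2 groups alone gave 906 lower genes, 4 falls in neuronal lists and 5 rises in non-neuronal lists. With 1 library left out there were 1178 to 3629 calls, 846 to 2143 higher and 332 to 1490 lower. Neuronal lists then had 132 to 196 rises and 2 to 6 falls, and non-neuronal lists 3 to 16 rises and 16 to 53 falls. The lowest totals came without cKO-GFP replicate 3 (1178) and cKO-GFP replicate 1 (1625). The rises in neuronal lists, 192 in edgeR, stayed within 1.5 times of that under every alternative.

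The labels state no pairing by replicate number. Same-numbered deviations from the group means correlated at -0.10, 0.06 and -0.15, and differently numbered ones at -0.16 to 0.17. Whether same-numbered libraries were prepared together was not tested. With the replicate number as a block 2648 genes were called, with 3 falls in neuronal lists and 5 rises in non-neuronal lists.

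Of 142 genes followed through the alternatives 136 were called, and 95 kept their call with any 1 library left out. The call was lost under no alternative that tested the gene for 64. Some of these, such as Cck, Calb1 and Necab1, were tested under 18 of the 19 alternatives only. With pools of 3 to 4 animals and 3 cKO-GFP libraries, calls just under the threshold depend on single libraries. Genes under 1 CPM in a group rest on few counts.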
